A study of Mus musculus with 6 samples.

Results

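Cholesterol and fatty acid synthesis was followed through 30 named genes in mouse kidney. They were 15 enzymes of sterol synthesis, 6 genes that control the sterol-regulated transcription factors or carry sterol, and 9 genes of fatty acid synthesis and remodelling. A gene was taken from a probe set (a group of array probes for 1 transcript) annotated with that symbol alone, and where a gene had several probe sets the one with the highest mean over the 6 arrays was used. All 30 genes were found among the 18193 genes named on the array, on 69 probe sets. RNA came from whole kidneys of 6 male mice aged 10 weeks, 1 Affymetrix array per animal. The ICD group was 3 animals, titled TG, that expressed the intracellular domain of megalin (called the soluble domain in the label of ICD 1), and the series design describes such animals as heterozygous. The wild type group was 3 littermates, titled WT. The sources used here give neither the promoter and cell types that drive the domain, nor the strain, nor whether the line comes from 1 founder. Megalin, the product of Lrp2, takes up filtered proteins in the proximal tubule, and the series asks whether its freed intracellular tail alters that segment.

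Cholesterol is built from acetyl-CoA through mevalonate, farnesyl diphosphate, squalene and lanosterol. Fatty acids are built from acetyl-CoA that ATP citrate lyase supplies, carboxylated by acetyl-CoA carboxylases, joined by fatty acid synthase, and then elongated and desaturated. Both branches are targets of the SREBP transcription factors, which are made as membrane proteins, escorted from the endoplasmic reticulum by SCAP and held there by INSIG proteins when sterols are plentiful. The product of Srebf2 acts mainly on sterol genes and that of Srebf1 mainly on fatty acid genes, the latter also under insulin and feeding. When SREBPs are active the genes of a branch are known to move together.

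Of 45037 probe sets, 0 (0%) passed the test of ICD against wild type (limma, Benjamini-Hochberg adjusted p under 0.05), and 2641 (5.86%) had an unadjusted p under 0.05. Values are log2 expression after RMA, so a difference of 1 is a doubling. Kidney markers were high: the proximal tubule markers Slc34a1 and Slc22a6 read 13.06 to 14.22 and the thick limb marker Umod 14.32 to 14.43 on every array. Lrp2, the gene of megalin, gave mixed readings between the groups. Of its 3 probe sets, the first read 12.25, 12.37 and 12.26 in ICD, and 13.01, 12.97 and 12.13 in wild type kidneys, so that the third wild type array lay below the ICD arrays. The second read 12.77 to 12.93 on all 6, and the third differed by 0.12 (95% confidence interval -0.25 to 0.49). The sources used here do not say which exons of Lrp2 the allele holds, so whether these probe sets can check the labels is not known. The third wild type array also read 4.12 for Slc5a12, a lactate transporter of the early proximal tubule, where the others read 9.27 to 10.47. Further proximal tubule markers read lowest on it. Slc34a3 read 6.46 (8.68 to 9.35 elsewhere), Slc5a2 10.40 (11.29 to 11.96) and Slc6a19 9.43 (10.63 to 11.15). Not every marker did so: Slc22a6 and Slc22a12 were not lowest on that array. That Slc5a12 value lay apart from both groups and does not test the label. The array is called the array labelled wild type 3, and differences without it are given for several genes. Whether its label is right, and what sets it apart, was not tested.

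None of the 30 genes passed the test, against 0% of probe sets, and the lowest limma adjusted p among them was 0.498. With 1 probe set per gene, 4 of 30 had an unadjusted limma p under 0.05, where 3.94% of all genes did: Nsdhl had a higher mean in ICD kidneys (1.74% of all genes were so), and Hsd17b7, Scd2 and Pnpla3 a lower one (2.2%). Among genes as bright as the median probe set, which all 30 were, the share was 3.63%. In 7 of 30 the 3 ICD arrays did not overlap the 3 wild type arrays, against 9.1% of all genes and 9.04% of the bright ones. Sqle, Nsdhl and Insig1 lay higher in ICD kidneys (3.66% of all genes did) and Mvd, Hsd17b7, Scd2 and Pnpla3 lower (5.44%). Differences within 0.1 of 0 were measured for 10 of 15 sterol enzymes, 4 of 6 control genes and 3 of 9 fatty acid genes, and for 73.4% of all genes. The median half-width of the 95% confidence interval was 0.19 over the sterol enzymes and 0.31 over the fatty acid genes. The intervals of the other 26 genes included 0.

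**Figure D1:**
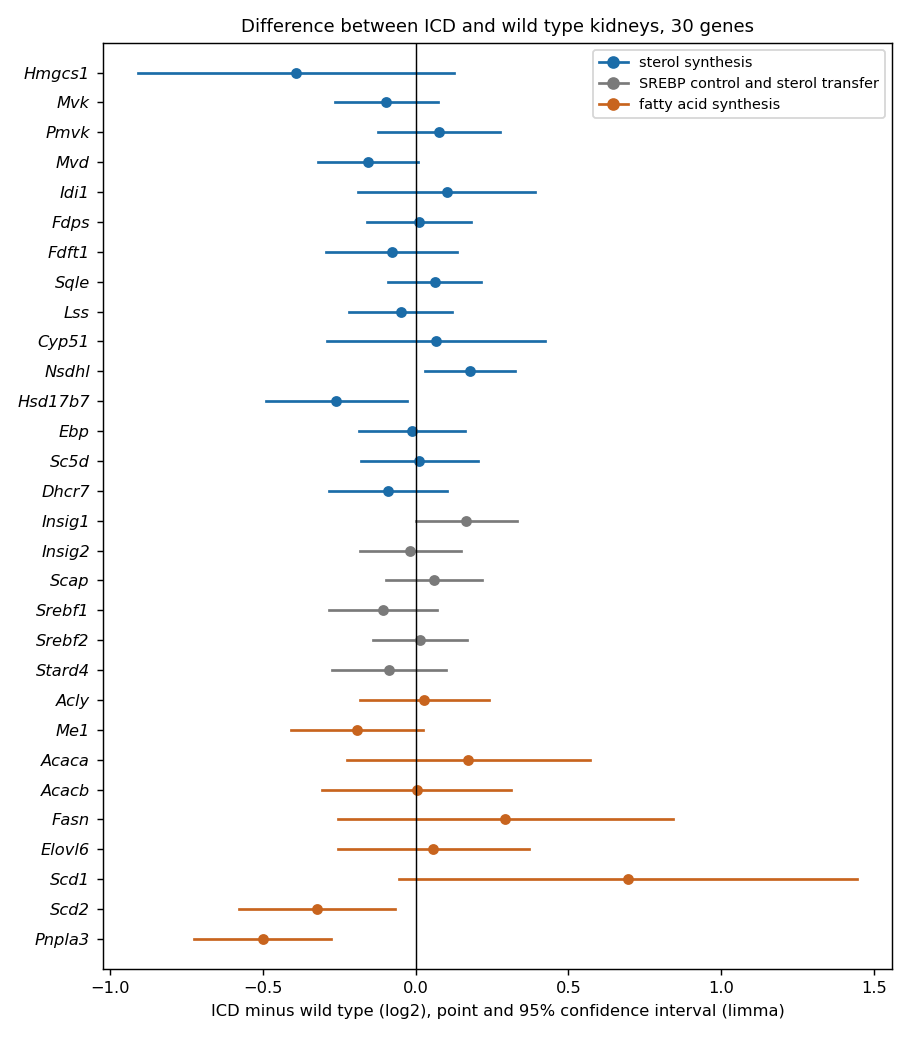
Difference between 3 ICD and 3 wild type kidneys (log2, horizontal axis) for each of the 30 genes, with the limma 95% confidence interval as a bar, coloured by branch. Intervals lie wholly on 1 side of 0 for Nsdhl, Hsd17b7, Scd2 and Pnpla3, and the widest belongs to Scd1 (-0.054 to 1.44).

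Promoters are shown for a few members picked by their values. These are Hmgcs1 and Fasn, which varied widely between animals, Pnpla3, which had the lowest limma adjusted p, and Insig1, a control gene whose groups did not overlap. Scd1, which had the largest difference, had no promoter entry. The 250 bases before the start of each gene are from RefSeq, assembly GRCm38.p6, written in the direction of the gene. Capitals mark 3 motifs searched on both strands: TCACNCCAC, a form of the sterol regulatory element bound by SREBPs, CCAAT, the box bound by NF-Y, which assists SREBPs, and CACGTG, an E-box. In Fasn 2 of the CCAAT matches overlap each other.
Hmgcs1, chr13:119690101-119690350, plus strand: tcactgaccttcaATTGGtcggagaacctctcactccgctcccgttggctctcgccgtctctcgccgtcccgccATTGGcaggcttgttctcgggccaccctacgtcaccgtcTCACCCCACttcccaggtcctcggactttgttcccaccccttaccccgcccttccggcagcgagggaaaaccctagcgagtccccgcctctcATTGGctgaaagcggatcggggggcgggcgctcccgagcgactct
Insig1, chr5:28071162-28071411, plus strand: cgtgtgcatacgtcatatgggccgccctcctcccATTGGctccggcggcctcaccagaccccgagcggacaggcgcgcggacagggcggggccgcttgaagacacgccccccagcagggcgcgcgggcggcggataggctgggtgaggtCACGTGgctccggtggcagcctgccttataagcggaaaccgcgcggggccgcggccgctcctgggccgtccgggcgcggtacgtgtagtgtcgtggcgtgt
Fasn, chr11:120824548-120824797, minus strand: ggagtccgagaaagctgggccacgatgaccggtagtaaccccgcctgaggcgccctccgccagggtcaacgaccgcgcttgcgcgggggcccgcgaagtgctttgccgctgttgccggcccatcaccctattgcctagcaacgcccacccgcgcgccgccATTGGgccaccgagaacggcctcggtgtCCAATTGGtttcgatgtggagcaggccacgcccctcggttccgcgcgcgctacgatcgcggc
Pnpla3, chr15:84167566-84167815, plus strand: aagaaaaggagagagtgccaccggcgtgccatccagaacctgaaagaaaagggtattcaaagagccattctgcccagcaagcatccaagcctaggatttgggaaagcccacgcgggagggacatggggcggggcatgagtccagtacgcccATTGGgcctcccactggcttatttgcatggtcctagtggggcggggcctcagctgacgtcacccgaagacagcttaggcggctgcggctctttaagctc

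Hmgcs1 held the sterol element as TCACCCCAC, starting 137 bases before the gene, with 3 CCAAT boxes. Insig1 held 1 CCAAT box and 1 E-box, Fasn 3 CCAAT boxes and Pnpla3 1. Promoters of 24 of the 30 genes were in the table. A CCAAT box lay in at least 1 promoter of 20 of the 24, among them all 12 sterol enzymes with an entry, 4 of 5 control genes and 4 of 7 fatty acid genes, where 37.5% of all genes and 33.9% of all promoters of that length held it. The sterol element was found in 1 of 24 (1.22% of all genes, 1.05% of promoters) and the E-box in 5 of 24 (6.86% of all genes, 6.02% of promoters). These are matches of letters in a short window, not measured sites.

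Sterol synthesis enzymes were balanced in direction, 7 higher and 8 lower in ICD kidneys, with a median difference of -0.012, equal to the median of -0.012 over all genes. In the mevalonate steps, which make isoprenoid units, Hmgcs1 (HMG-CoA synthase) varied most. It read 13.60, 12.70 and 13.44 in ICD and 13.63, 13.39 and 13.89 in wild type kidneys. A single animal, ICD 2, lay well below the rest, and the groups overlapped. The difference was -0.39 (95% confidence interval -0.91 to 0.13, limma adjusted p = 0.917), and -0.12 without ICD 2. All 5 Hmgcs1 probe sets gave a lower ICD mean (-0.59 to -0.30) and each read lowest on ICD 2, so this was not a feature of 1 probe set. Leaving out the array labelled wild type 3 gave -0.26.

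The next enzymes of the mevalonate steps were steadier. Mvd, which decarboxylates mevalonate diphosphate, read 9.20, 9.36 and 9.29 in ICD and 9.49, 9.42 and 9.40 in wild type kidneys. All 3 ICD arrays were below all 3 wild type arrays, by a mean of 0.16 (difference -0.16, interval -0.32 to 0.0074, limma adjusted p = 0.866), and its further probe set differed by -0.10 with overlap. The kinases Mvk and Pmvk differed by -0.097 and 0.076. Idi1, the isopentenyl diphosphate isomerase, differed by 0.10 (interval -0.19 to 0.39). It read 11.34 on wild type 1 and 11.59 to 11.83 elsewhere, and its difference was -0.039 without wild type 1. Fdps, which makes farnesyl diphosphate, read 7.97 to 8.16 on all arrays and differed by 0.010.

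At the squalene steps differences were small. Fdft1 (squalene synthase) differed by -0.079, Sqle (squalene epoxidase, a rate-setting oxygenase) by 0.061 and Lss (lanosterol synthase) by -0.049. Sqle counts among the genes without overlap only narrowly: it read 10.49, 10.48 and 10.51 in ICD and 10.47, 10.48 and 10.36 in wild type kidneys, so that the nearest arrays of the groups differed by less than the rounding.

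Between lanosterol and cholesterol, Nsdhl and Hsd17b7, which act together in removing the methyl groups at carbon C4, differed in opposite directions. Nsdhl, the sterol dehydrogenase, read 10.75, 10.73 and 10.68 in ICD and 10.59, 10.50 and 10.54 in wild type kidneys. The arrays of each group lay close together and did not overlap, and the difference was 0.18 (interval 0.031 to 0.33, limma adjusted p = 0.788), or 0.18 (interval -0.0021 to 0.35) without the array labelled wild type 3. Hsd17b7, the ketosteroid reductase, read 9.22, 9.06 and 9.10 in ICD and 9.33, 9.24 and 9.59 in wild type kidneys. Its groups lay close without overlapping, and the difference was -0.26 (interval -0.49 to -0.029, limma adjusted p = 0.818), or -0.16 (interval -0.36 to 0.040) without the array labelled wild type 3. That brightest probe set is of the x_at type, whose probes may also match other transcripts. The further Hsd17b7 probe sets differed by -0.23, 0.0091 and -0.20, each with overlap. Cyp51, the lanosterol demethylase, read 11.03 on wild type 1 and 11.32 to 11.69 elsewhere, for a difference of 0.066 (interval -0.29 to 0.42), and -0.12 without wild type 1. Ebp (sterol isomerase), Sc5d (sterol desaturase) and Dhcr7, the last reductase of the route, differed by -0.012, 0.012 and -0.091.

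Among the genes that control SREBPs, 3 were higher and 3 lower, with a median difference of -0.0028. Insig1, which retains SCAP and is itself a sensitive SREBP target, read 8.32, 8.22 and 8.19 in ICD and 8.05, 8.02 and 8.16 in the wild type animals. These groups did not overlap, though ICD 3 and the array labelled wild type 3 lay close. The difference was 0.16 (interval -0.00030 to 0.33, limma adjusted p = 0.853), and 0.20 (interval 0.020 to 0.39) without the array labelled wild type 3. Insig2, the second retention protein, differed by -0.019, Scap by 0.059, and Srebf2 by 0.013, with a span over all 6 arrays of only 0.12 for Srebf2. Srebf1 read 9.07, 9.23 and 9.04 in ICD and 9.16, 9.21 and 9.30 in the wild type, for a difference of -0.11 (interval -0.29 to 0.070) with overlap. Stard4, a soluble carrier of sterol, differed by -0.088, its second probe set by -0.16 (limma adjusted p = 0.84) and the other, in the opposite direction, by 0.040.

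**Figure D2:**
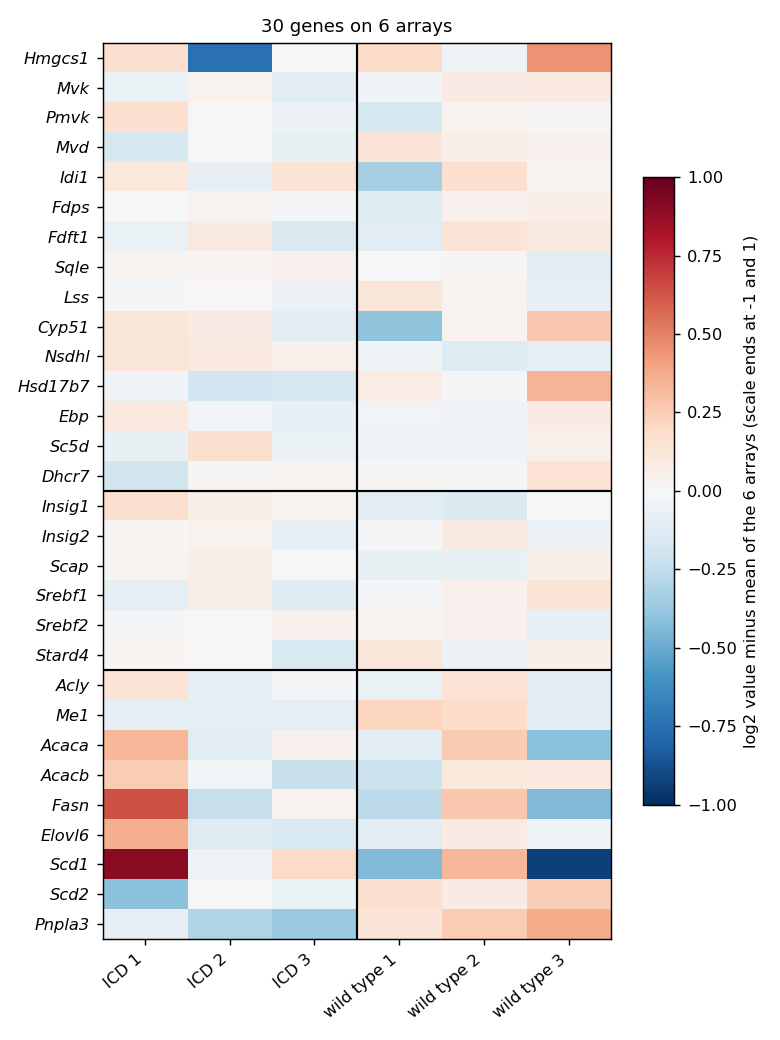
Deviation of each log2 value from its 6 array mean (colour) for the 30 genes (rows: sterol enzymes, control genes, fatty acid genes, separated by lines) on the 3 ICD and 3 wild type arrays. The strongest colours lie in Scd1 and Fasn on ICD 1 and the array labelled wild type 3, and in Hmgcs1 on ICD 2.

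Fatty acid synthesis genes differed most, in both directions: 6 were higher and 3 lower in ICD kidneys, with a median of 0.028. Scd1, the main stearoyl-CoA desaturase, which makes oleic acid, had the largest difference of the 30. It read 12.73, 11.78 and 12.02 in ICD and 11.39, 12.16 and 10.90 in wild type kidneys. ICD 1 was highest and the array labelled wild type 3 lowest, 3.56-fold apart, and wild type 2 lay above both ICD 2 and ICD 3. The difference of 0.69 (1.62-fold, interval -0.054 to 1.44 on the log2 scale, limma adjusted p = 0.869) was within the spread of the animals. Leaving out the array labelled wild type 3 gave 0.40, leaving out ICD 1 gave 0.42 and leaving out wild type 2 gave 1.03, none past the adjusted test. The second Scd1 probe set differed by 0.66.

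Scd2, the desaturase paralog of Scd1, differed in the opposite direction. It read 10.07, 10.48 and 10.42 in ICD and 10.64, 10.57 and 10.73 in wild type kidneys, without overlap, and lowest on ICD 1, where Scd1 was highest. The difference was -0.32 (interval -0.58 to -0.069, limma adjusted p = 0.756), -0.20 when ICD 1 was left out and -0.28 (interval -0.58 to 0.015) when the array labelled wild type 3 was. The further Scd2 probe sets differed by -0.26 and -0.044, both with overlap.

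Pnpla3, an acylglycerol and retinyl ester lipase known as a target of Srebf1 in liver, had the smallest p of the 30. It read 7.0, 6.78 and 6.71 in ICD and 7.21, 7.33 and 7.45 in wild type kidneys. Every ICD array lay below every wild type array, by a mean of 0.50 (difference -0.50, or 1.42-fold lower, interval -0.73 to -0.28, limma adjusted p = 0.498). With 1 array left out the difference was -0.59 to -0.44, and its direction could not turn, because the groups did not overlap. Only this probe set names the gene, so no second measurement was at hand.

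The enzymes between them were mostly variable. Fasn, fatty acid synthase, read 11.43, 10.55 and 10.82 in ICD and 10.52, 11.06 and 10.34 in wild type kidneys. The groups overlapped widely, and the difference was 0.29 (interval -0.26 to 0.84), with a range of 0.046 (without ICD 1) to 0.50 (without wild type 2) when 1 array was left out. Without ICD 2 it was 0.48, and without the array labelled wild type 3 it was 0.14. Acaca, the cytosolic acetyl-CoA carboxylase, read 9.79, 9.34 and 9.49 in ICD and 9.35, 9.71 and 9.04 in the wild type, for a difference of 0.17 (interval -0.23 to 0.57). Leaving out the array labelled wild type 3 gave 0.0085, ICD 1 0.048, ICD 2 0.27 and wild type 2 0.35. Acacb, the carboxylase that curbs fatty acid entry into mitochondria, differed by 0.0028 and Elovl6, the elongase of palmitate, by 0.057. Elovl6 differed by -0.11 without ICD 1. Of the genes that supply precursors, Acly (ATP citrate lyase) differed by 0.028. Me1, the malic enzyme that yields NADPH, read 13.08, 13.08 and 13.09 in ICD and 13.39, 13.36 and 13.07 in wild type kidneys: the array labelled wild type 3 sat with the ICD arrays and the other wild type arrays lay above. Its difference was -0.19 (interval -0.41 to 0.024), and -0.30 (interval -0.47 to -0.13, limma adjusted p = 0.76) without that array. The further Me1 probe set differed by -0.059.

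Further probe sets of the members did not all share the sign of the brightest: 15 of 39 had the opposite sign, 7 of 24 among the bright ones, and none lay over 0.3 from the brightest. The bright ones of opposite sign were of Cyp51 (-0.037 and -0.090), Idi1 (-0.039), Insig2 (0.00059), Srebf2 (-0.026), Stard4 and Hsd17b7 as given above. The dim ones were of Acacb (-0.078), Acly (-0.020 and -0.073), Elovl6 (-0.0089), Fdft1 (0.019), Fdps (-0.065) and Lss (0.037 and 0.031). A further bright probe set of Elovl6 had the same sign and a larger difference, 0.21.

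**Figure D3:**
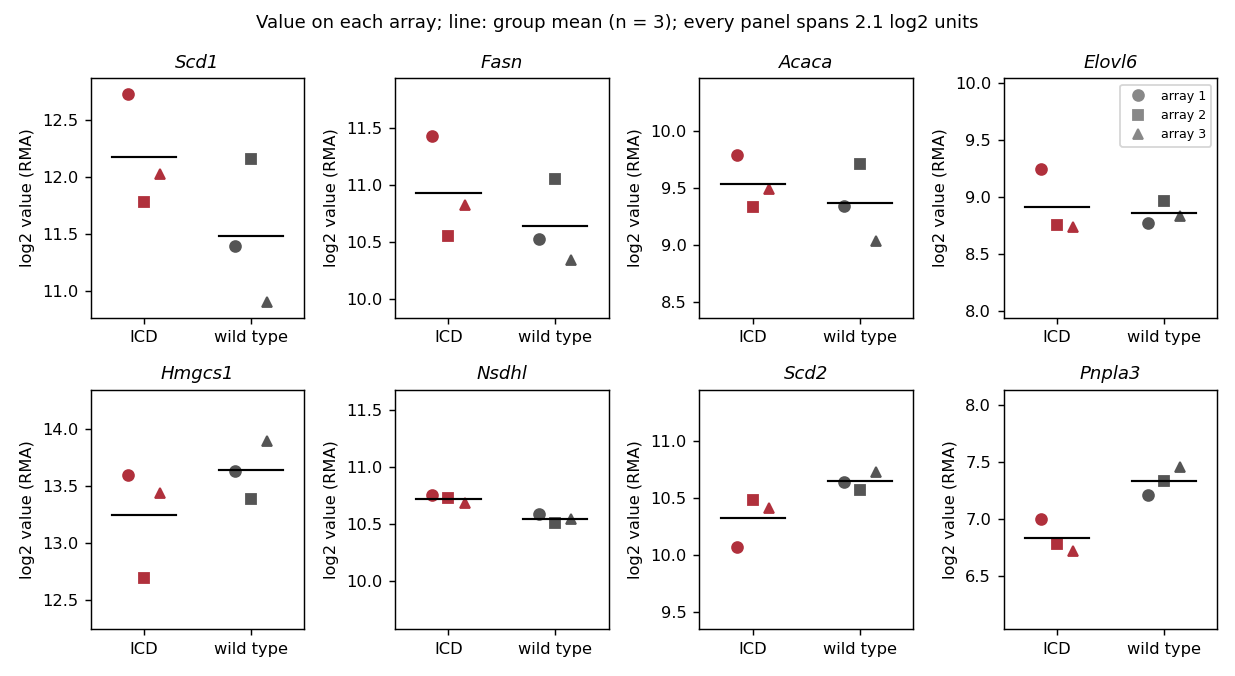
Log2 value of 8 genes on each array (points, symbol by replicate number), with the group mean as a line (n = 3), each panel spanning the same height. Groups overlap in Scd1, Fasn, Acaca, Elovl6 and Hmgcs1, and lie apart in Nsdhl, Scd2 and Pnpla3.

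The fatty acid genes varied more between animals than the sterol enzymes, and the branch medians of the genotype difference lay close together. The median of the sterol enzymes minus that of the fatty acid genes was -0.041. Opposite differences within a branch, such as those of Scd1 and Pnpla3, cancel in a median. The mean deviation of a branch from its 6 array mean gives a score per array. Sterol scores were 0.012, -0.034 and -0.041 in ICD and -0.049, 0.020 and 0.092 in wild type kidneys. Fatty acid scores spread further, at 0.23, -0.12 and -0.071 in ICD and -0.078, 0.19 and -0.15 in wild type kidneys. They average 9 genes against 15, and a mean over fewer genes can spread more. The sterol score minus the fatty acid score averaged -0.034 ± 0.16 over ICD kidneys (SD, n = 3) and 0.034 ± 0.21 over wild type kidneys, so the genotypes overlapped in this contrast. A within-group SD above 0.2 was measured for 5 of 9 fatty acid genes (Acaca, Acacb, Fasn, Elovl6 and Scd1) and for 2 of 15 sterol enzymes (Hmgcs1 and Cyp51), against 9.02% of the 11691 genes as bright as the median probe set, which all 30 members were. Of those bright genes, 0.607% had a larger SD than Scd1, 1.41% than Fasn and 1.74% than Hmgcs1. No test of this spread was made.

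The animals that were high in the variable fatty acid genes were shared between genes, a pattern chosen after the values were seen. ICD 1 was the highest ICD array and wild type 2 the highest wild type array for Acly, Acaca, Acacb, Fasn, Elovl6 and Scd1, 6 of 9 genes, where 9.21% of bright genes had that order. It held for 1 of 15 sterol enzymes, Pmvk, and 0 of 6 control genes. Among the 6 fatty acid genes with that order, the array labelled wild type 3 was the lowest wild type array in Acly, Acaca, Fasn and Scd1. Thus 4 of 9 had both features, against 3.84% of bright genes. It was also the lowest wild type array in Me1, which did not have the order. Scd2, Pnpla3 and Me1 did not follow the pattern. Of the other genes of fatty acid and triglyceride synthesis 5 of 16 had that order, and of all 32 measured neighbours 7. Among those 5 was Thrsp, a lipogenic gene named after its values were seen, which read 10.82, 10.01 and 9.86 in ICD and 9.98, 10.75 and 10.03 in the wild type, for a difference of -0.025. All these genes were read from the same RNA of the same animals, so their agreement is not repeated evidence.

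Fat tissue also makes these enzymes, and its markers also had higher means in ICD kidneys. All 6 measured adipose markers of 8 listed were higher in ICD kidneys (median difference 0.29), none past the test. Their mean level was 9.36, 9.39 and 9.0 in ICD and 8.59, 9.13 and 9.20 in wild type kidneys. Retn (resistin) and Fabp4 (the fat cell fatty acid binding protein) were highest on ICD 1 and wild type 2 within their groups, the order of Fasn, and the other 4 measured markers were not. Retn read 9.28, 9.08 and 8.70 in ICD and 8.27, 8.90 and 8.79 in wild type kidneys. Adipoq, the fat hormone adiponectin, read 10.54, 10.61 and 9.87 in ICD and 9.36, 10.07 and 10.31 in wild type kidneys. All 6 were lowest on wild type 1. Lep, the fat hormone leptin, read 4.57 to 4.68, near the low end of the arrays. The part of fat tissue in the fatty acid genes was not tested. In whole tissue, fewer cells of a type and less RNA per cell cannot be told apart.

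Other cell types were checked in the same way. The 7 markers of adrenal cortex, a gland rich in sterol synthesis, had mean levels of 6.10 to 6.16 in ICD and 6.15 to 6.19 in wild type kidneys, and none had an unadjusted limma p under 0.05. Of 11 proximal tubule markers 9 were higher in ICD kidneys (median 0.088), with mean levels of 12.36 to 12.48 in ICD kidneys, 12.48 and 12.24 on wild type 1 and 2, and 11.28 on the array labelled wild type 3. The 4 measured podocyte markers were all higher without overlap (median 0.38), as Nsdhl, Insig1 and Sqle were, where 3.66% of all genes were. All 4 had an unadjusted limma p under 0.05 (1.74% of all genes were so and higher), and none passed the adjusted test. Their mean levels were 8.19 to 8.32 in ICD and 7.73 to 8.04 in wild type kidneys, lowest (7.73) on the array labelled wild type 3. The transporter Slc6a19 of the proximal tubule (0.81), Ptger3 of the thick limb (-0.35) and Avpr2 of principal cells (-0.23) also had an unadjusted limma p under 0.05 without overlap. Slc6a19 read lowest, 9.43, on the array labelled wild type 3, and its difference without that array was 0.38 (interval 0.18 to 0.58). In all, 4 of 5 markers each of thick limb (median -0.097) and principal cells (median -0.11) were lower. Mean levels were 11.51 to 11.64 in ICD and 11.63 to 11.76 in wild type kidneys for the thick limb. For principal cells they were 9.47 to 9.56 and 9.52 to 9.75. In both lists the array labelled wild type 3 read highest (11.76 and 9.75). The 4 endothelial markers were higher by a median of 0.10 (mean levels 8.10 to 8.30 and 7.79 to 8.33). Of 4 myeloid markers 3 were higher, with a list median of 0.11 (8.24 to 8.53 and 8.23 to 8.39). Both lists read lowest on the array labelled wild type 3 (7.79 and 8.23). Their part in the differences of the 30 genes was not tested.

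**Figure D4:**
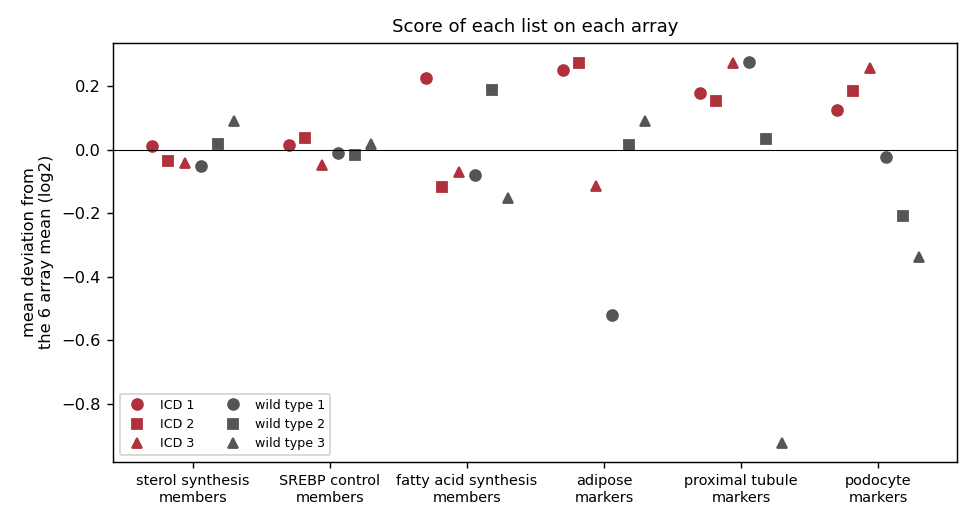
Score of each list on each array (mean over its genes of the log2 value minus the 6 array mean) for the 3 groups of members and for markers of fat, proximal tubule and podocytes. Sterol scores stay between -0.049 and 0.092, whereas fatty acid scores run from -0.15 to 0.23, and the proximal tubule score is -0.92 on the array labelled wild type 3.

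Neighbouring genes of the same pathways gave no call either. Of 37 listed, 32 were measured, 18 higher and 14 lower in ICD kidneys with a median of 0.022. None passed the test or reached an unadjusted limma p under 0.05 (3.94% of all genes did), and 2, Fads1 and Npc2, did not overlap, where 9.1% of all genes did not. Further genes of fatty acid and triglyceride synthesis were higher for 12 of 16 (median 0.058), against 43.9% higher over all genes. The highest was Lpin1, the phosphatidate phosphatase lipin (0.23, interval -0.12 to 0.59). Genes of sterol sensing, efflux and ester breakdown were higher for 5 of 8 (median 0.11), with Lipa, the lysosomal acid lipase, at 0.21 (interval -0.20 to 0.63). The level of Lipa was 10.27 on the array labelled wild type 3, against 10.86 to 11.05 elsewhere. Without that array its difference was -0.021 (interval -0.23 to 0.19). Of 4 further sterol enzymes listed 2 were measured and both were lower, Msmo1, the sterol methyl oxidase that acts with Nsdhl and Hsd17b7, by -0.14 (interval -0.37 to 0.089). Of 6 genes of SREBP processing 5 were lower (median -0.034). Mid1ip1, a partner of acetyl-CoA carboxylase, differed by -0.13 (interval -0.37 to 0.095).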

How the data were processed

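Gene expression was measured in kidney RNA on 1 Affymetrix array per mouse, in 3 ICD and 3 wild type animals grouped by their titles. The values deposited by the authors are log2 expression, with RMA named in the submitters' processing notes. RMA evens out the distributions of the arrays and compresses differences of dim probe sets. The sources used here do not give its version, chip definition or filters. Array medians lay between 6.62 and 6.66 and correlations between arrays between 0.9949 and 0.9966. No scanner files were used.

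Of 45101 rows, 64 control rows were left out. The platform annotation gave 1 symbol for 34945 probe sets. Entrez identifiers were checked against RefSeq (GRCm38.p6), and 0 symbols changed. limma 3.58.1 in R 4.3.3 (lmFit, eBayes, genotype as the only term, 2-sided) was fitted to 45037 probe sets with Benjamini-Hochberg adjustment and tested on simulated data. An exact permutation test of 3 against 3 cannot go below p = 0.1 and was not used. The number of arrays limits the precision. Members and lists were chosen with earlier results of these data known. The text names every member, further probe sets that differ in sign, and the 2 highest and 2 lowest other pathway genes. Of 37 such genes 5 were not analysed here. Alternatives are given in the closing section.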

Additional observations from a re-analysis of the deposited data

How the results depend on the processing

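No member passed the threshold in limma under any of the 13 alternatives run. Of 390 recomputed member differences 363 kept their direction and 27 turned it, all in 11 members with a difference of at most 0.10 in size. Part of the 363 was fixed in advance. The fits with bright probe sets, a replicate block or a trended prior leave each difference unchanged, so no direction could turn in them. Nor could the mean of all probe sets turn a member that has only 1 probe set. The other 19 members, Scd1, Scd2, Pnpla3, Nsdhl, Hsd17b7, Hmgcs1 and Insig1 among them, kept their direction. For Scd2, Pnpla3, Nsdhl, Hsd17b7 and Insig1, whose groups did not overlap, leaving out 1 array could not have turned it. Over all probe sets limma called 0, but 1 with a trended and robust prior, and 0 to 1 when 1 array was left out (1 each without ICD 1, ICD 2 or the array labelled wild type 3). The median of the control genes was -0.038 to 0.030 without 1 array, lowest when the array labelled wild type 3 was left out. The fatty acid median was -0.11 without ICD 1 and 0.11 without ICD 3, and the sterol median -0.063 without ICD 2 and 0.024 when the array labelled wild type 3 was left out. The sterol minus fatty acid median ran from -0.14 without ICD 2 to 0.087 without ICD 1. Correlations of deviations were -0.047 to 0.008 between arrays of the same replicate number and -0.062 to 0.076 between arrays of different number. With so few arrays these values cannot tell whether the numbers pair the animals, which the sources used here do not state. With a replicate block 0 probe sets were called, and 5 members had an unadjusted p under 0.05 against 4 without it. That number was 7 with array weights, 6 among bright probe sets or with the trended prior, and 3 to 5 without 1 array.

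Directions turned as follows, and the cause was not tested. With the mean of all probe sets Fdps read -0.027, Lss 0.0064, Cyp51 -0.021, Srebf2 -0.0066 and Acacb -0.038. After quantile normalization Fdps read -0.0045 and Acacb -0.0075, with median centring Acacb -0.0046, and with array weights Sc5d -0.014. Without 1 array Idi1 ran from -0.039 to 0.20, Fdps from -0.049 to 0.045, Cyp51 from -0.12 to 0.22 and Ebp from -0.063 to 0.027. In the same fits Sc5d ran from -0.066 to 0.054, Insig2 from -0.052 to 0.023 and Srebf2 from -0.024 to 0.036. Acly ran from -0.033 to 0.10, Acacb from -0.12 to 0.11 and Elovl6 from -0.11 to 0.15.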
